A study of Mus musculus with 9 samples.

Results

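A miRNA hairpin is cut into a duplex of 2 strands. The guide strand is loaded into an Argonaute protein and silences mRNAs through its seed, bases 2 to 8 from its 5′ end, whereas the passenger strand, marked with a star in older nomenclature, is mostly degraded. Both strands come from the same precursor, and their ratio on an array sets one strand against the other within the same RNA sample.

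The passenger strands of long-known conserved miRNAs were examined here: array probes named let-7 or miR-1 to miR-296 that end in a star, with 11 stems left out. The rule gave 138 of the 1135 miRNA probes, and the array holds 335 star probes in all. RNA came from glomeruli isolated by bead perfusion from female mice that received no treatment. The control group was healthy C57BL/6 mice (age 9 months), the early GN group was B6.MRLc1 mice at 9 months with early glomerulonephritis, and the late GN group was B6.MRLc1 mice at 14 months with late glomerulonephritis. B6.MRLc1 mice are congenic, with a segment of MRL chromosome 1 on the C57BL/6 background. Each group had 3 arrays with 1 mouse each. No control mice of 14 months were analysed, so age and disease stage cannot be told apart in the late comparison. In the deposited labels the 3 early GN samples carry the strain entry C57BL/6, and the series text swaps the ages of the stages. Titles and disease states were followed here.

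Of the 138 passenger strands, 32 had a value on all 9 arrays, as did 411 of the 1135 probes, and 33 had none on any array. The sequences of 29 of the 32 were found in RefSeq (GRCm38.p6). They are printed where the results turn on them, 5′ to 3′, with the seed in capitals. The first set holds the 12 strands with the largest late GN log2 change of level among those with a sequence.
miR-204*: gCUGGGAAggcaaagggacgu
miR-92b*: aGGGACGGgacguggugcaguguu
miR-92a-2*: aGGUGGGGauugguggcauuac
miR-149*: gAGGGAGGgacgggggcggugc
miR-211*: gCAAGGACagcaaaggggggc
miR-210*: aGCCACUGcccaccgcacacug
miR-185*: aGGGGCUGgcuuuccucuggu
miR-23a*: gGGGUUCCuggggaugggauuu
miR-194-1*: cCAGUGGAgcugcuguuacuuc
miR-128-1*: cGGGGCCGuagcacugucuga
miR-7b*: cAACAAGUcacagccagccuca
miR-7a-2*: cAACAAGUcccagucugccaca
The second set holds 6 of the strands with lower levels in late GN than in control.
miR-10a*: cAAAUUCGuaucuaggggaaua
miR-10b*: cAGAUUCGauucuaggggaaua
miR-30a*: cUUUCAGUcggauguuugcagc
miR-30e*: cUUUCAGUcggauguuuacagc
miR-24-1*: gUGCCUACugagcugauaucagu
miR-29a*: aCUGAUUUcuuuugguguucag
Strands of paralogous hairpins are close to each other. miR-30a* and miR-30e* share the seed and differ at 1 of 22 bases, and miR-10a* and miR-10b* differ at 3 of 22. miR-24-1* and miR-24-2* share a seed, as do miR-7a-2* and miR-7b*, which differ at 4 of 22 bases. Binding of 1 strand to the probe of the other was not tested, so values within these pairs cannot be assumed to be separate measurements.

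Some of these strands lie within the span of a protein-coding gene. The gene of miR-204 (chr19:22750649-22750669, plus strand, for the star) lies within Trpm3, and that of miR-211 (chr7:64205868-64205888, plus strand) within Trpm1, and both host genes encode cation channels. The miR-149* sequence (chr1:92850421-92850442, plus strand) lies within Gpc1, which encodes the heparan sulfate proteoglycan glypican-1. miR-10a* (chr11:96317227-96317248, plus strand) lies within Hoxb3, and miR-10b* (chr2:74726114-74726135, plus strand) within Hoxd3 and Hoxd4. miR-92b* (chr3:89227165-89227188, minus strand) and miR-92a-2* (chrX:52741892-52741913, minus strand) lie within no other gene that the annotation names apart from miRNA genes and provisional models. The annotation used gives gene spans, so exons and introns were not separated.

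The number of passenger strands with a value varied widely between arrays. The control arrays listed 61, 61 and 56 of the 138, the early GN arrays 35, 45 and 80, and the late GN arrays 82, 71 and 77. The early GN group thus spanned both the lowest and nearly the highest number, whereas all late GN arrays lay above all control arrays. The whole array behaved alike, with 588 to 595 probes listed on control, 428 to 738 on early GN and 693 to 755 on late GN arrays. The deposited value is a fluorescence intensity scaled by 1 factor for each array. The factor was 1.10, 1.25 and 2.34 on the early GN arrays, 1.67 to 1.97 on the control arrays and 1.30 to 1.88 on the late GN arrays. The photomultiplier gain was 35 on all arrays but 3, early GN 1 and late GN 2 with 36 and late GN 3 with 37. Marker miRNAs of several cell types were summed. Leukocyte markers (miR-223, miR-142-3p, miR-142-5p, miR-150 and miR-155, 4 of the 5 on all arrays) gave 223 to 275 in control, 93.9 to 404 in early GN and 375 to 554 in late GN. Tubule markers (miR-192, miR-194 and miR-204, all 3 on all arrays) gave 786 to 1142, 367 to 1066 and 1065 to 1274, and the endothelial pair of miR-126 strands 24616 to 27460, 10090 to 21872 and 15470 to 20716. The 6 podocyte and glomerulus markers, with miR-30a, miR-30c and miR-30d among them, gave 62894 to 69383, 27894 to 66723 and 41169 to 46010, and the mesangial pair miR-143 and miR-145 8760 to 9809, 4027 to 8872 and 6597 to 7832. The 3 red blood cell markers, with miR-451 among them and 2 of the 3 on all arrays, gave 868 to 983, 214 to 828 and 461 to 714. The part of cell composition in the results below was not tested, and in whole glomeruli fewer cells of a type and less RNA per cell cannot be told apart.

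**Figure D1:**
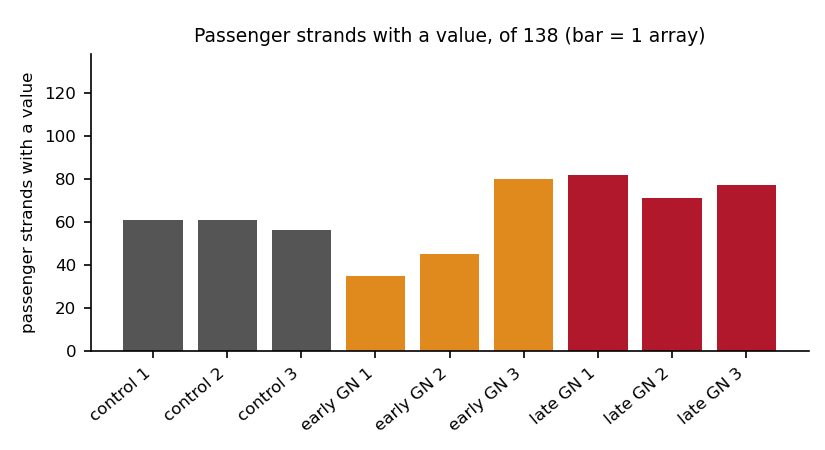
Number of the 138 passenger strands that had a value on each array (bar, 1 array). The early GN arrays had 35, 45 and 80, and the control arrays 56 to 61.

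On the deposited scale no passenger strand passed an adjusted p of 0.05 in any comparison (limma on log2 intensity, Benjamini-Hochberg over 411 miRNAs). In early GN against control 0 of 32 passed (all tested 0.243%), in late GN against control 0 of 32 (all tested 4.14%) and in late against early GN 0 of 32 (all tested 1.7%). At an unadjusted p of 0.05, 1 strand was above control in early GN (all tested 2.19%) and 3 were below (all tested 13.6%). In late GN 11 were above control (all tested 27.5%) and 0 below (all tested 2.92%), and 8 were above early GN (all tested 30.2%) and 0 below (all tested 0.243%). The median log2 change of the 32 strands was −0.42 in early GN (all 411, −0.38), 0.03 in late GN (all 411, 0.45) and 0.57 in late against early GN (all 411, 0.70). The standard error of a single strand's log2 change was 0.44 in this fit, which pools the spread of the 3 groups. Through limma it also shares the spread of the 411 miRNAs, so it is not the strand's own spread. Most of that spread lay in the early GN group, whose arrays had a median log2 difference from control over the 32 strands of −0.99, −0.66 and 0.45, against −0.01 to 0.26 on the late GN arrays. The counts changed when early GN array 3 was left out: without it 18 strands fell in early GN (all tested 56.4%) and 1 rose, 13 rose (all tested 41.8%) and 3 fell in late GN, and 26 were higher in late than in early GN (all tested 91.5%). Without early GN array 1, 11 rose in late GN (all tested 31.6%) and 0 fell.

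In spite of that spread the late GN and control arrays were separate for many strands. In late GN 14 of the 32 had all 3 values above all control values (all tested 49.1%) and 5 had all 3 below (all tested 21.7%). In early GN these numbers were 2 (all tested 1.95%) and 3 (all tested 6.33%), and 7 strands were higher in all late than in all early GN arrays (all tested 21.4%). For 3 arrays against 3, such separation has an exact two-sided permutation p of 0.1, the smallest possible. When only the late GN and control arrays were fitted, 15 passenger strands were higher (all tested 48.7%) and 5 lower (all tested 17.5%) at an adjusted p of 0.05.

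**Figure D2:**
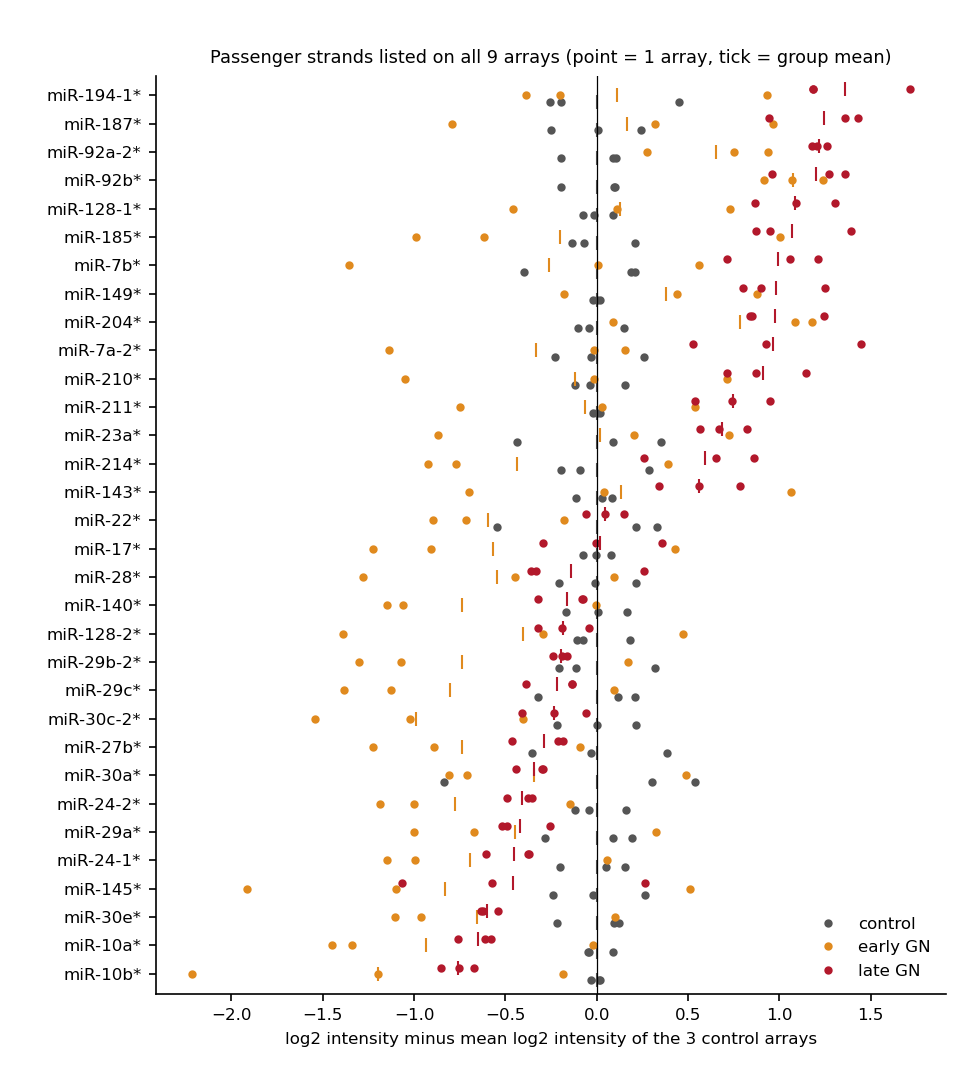
Log2 intensity of the 32 passenger strands on each array (point) relative to the mean of the 3 control arrays, ordered by the late GN mean (ticks, group means). The upper 15 strands have late GN means of 0.56 to 1.36, the lower strands go down to −0.76, and the early GN points spread widely for most strands.

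Against control, most strands kept the direction of their change under the scalings tried. Across 7 scalings of the arrays, the sign in late GN was positive for 13 of the 32 strands and negative for 15 under each of the 7, and 4 changed sign. In early GN 8 were higher and 16 lower under each scaling. The call did depend on it. After each array was brought to the same median of its 411 values (the common median), 10 passenger strands rose (all tested 32.1%) and 12 fell (all tested 29.9%) in late GN, and 4 rose (all tested 6.81%) and 0 fell (all tested 3.89%) in early GN. The shares of strands called are close to those of all miRNAs in late GN. This scaling lowers the median of all miRNAs in late GN from 0.45 to 0.13 and raises it in early GN from −0.38 to 0.01.

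The passenger strand with the highest signal was miR-149*, followed by miR-211*, miR-92b*, miR-30a* and miR-30e*. miR-149* gave 2190, 2156 and 2210 on the control arrays, 1929, 2963 and 4018 on the early GN arrays and 4068, 5198 and 3804 on the late GN arrays. The late GN values were all above the control values, and early GN overlapped both. The log2 change in late GN was 0.98 ± 0.44 (SE, n = 3 against 3, limma adjusted p = 0.129), and with the common median it was 0.67 (limma adjusted p = 0.015). The guide gave 23.2 ± 5.25 in control and 33.7 ± 8.48 in late GN (SD, n = 3). Signals of different probes are not comparable, so the order of signals is not an order of abundance, and a star signal above that of the guide does not make the star the more abundant strand.

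miR-92b* and miR-92a-2* were grouped with the miR-17-92 cluster and its relatives, a family that acts in cell cycle and growth control. The guides of miR-92b* and miR-92a-2* share a seed. miR-92b* gave 633, 636 and 519 in control, 1121, 1399 and 1246 in early GN, with 1156, 1522 and 1433 in late GN. Both GN groups lay above control without overlap, although 2 of the early GN arrays were dim. The log2 changes were 1.08 in early and 1.20 in late GN (SE 0.44, limma adjusted p = 0.25 and 0.10), and with the common median they were 1.46 (limma adjusted p = 0.019) and 0.88 (limma adjusted p = 0.026).
miR-92a-2* gave 100.4, 101.8 and 82.5 in control, 114, 159 and 181 in early GN, with 218, 226 and 213 in late GN. The 3 groups did not overlap. Its log2 changes were 0.65 and 1.21, and with the common median 1.04 (limma adjusted p = 0.021) and 0.90 (limma adjusted p = 0.007). The third strand of this family with values on all arrays, miR-17*, gave 39.2 to 43.5 in control and 33.7 to 52.8 in late GN, and these overlapped.

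miR-204 and miR-211 are paralogs with the same guide seed, and miR-204 is abundant in tubular epithelium. miR-204* gave 60.8, 72.5 and 63.4 in control, 69.6, 139 and 148 in early GN, with 118, 155 and 117 in late GN. Only 1 early GN array lay within the control range. The log2 change was 0.78 in early GN (limma adjusted p = 0.358) and 0.98 in late GN (limma adjusted p = 0.129), and with the common median both passed (1.17, limma adjusted p = 0.019, and 0.66, limma adjusted p = 0.034).
miR-211* gave 971, 983 and 956 in control, 576.5, 988 and 1408 in early GN, with 1623, 1874 and 1407 in late GN. Late GN lay above control, with a log2 change of 0.74 (limma adjusted p = 0.218, and 0.064 with the common median). Its guide was listed on 1 control, 1 early GN and 3 late GN arrays, with 5.47 to 8.61, so no ratio was formed.

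The 2 largest late GN log2 changes were those of miR-194-1* and miR-187*. miR-194-1*, whose guide is a tubular and hepatic miRNA, gave 15.4, 9.89 and 9.48 in control, 8.64, 9.83 and 21.6 in early GN, with 25.6, 37.1 and 25.7 in late GN. The late values were 2.57-fold higher than control (log2 1.36 ± 0.44, SE, limma adjusted p = 0.051).
miR-187* gave 28.4 to 40.03 in control and 65.0 to 91.1 in late GN, a log2 change of 1.24 (limma adjusted p = 0.081). miR-185* gave 16.1 to 20.5 and 32.5 to 46.5, a log2 change of 1.07 (limma adjusted p = 0.116).
miR-128-1*, from a neuronal miRNA, gave 33.9 to 37.9 in control, 26.0 to 59.1 in early GN and 64.9 to 88.2 in late GN (log2 1.09, limma adjusted p = 0.109, and 0.77 with the common median, limma adjusted p = 0.006). Its paralog miR-128-2* has the same seed and did not share this pattern, with 201 to 246 in control and 173 to 210 in late GN (log2 −0.18). The difference between these paralogs was not tested.
miR-7b*, miR-7a-2* and miR-210*, the last from the hypoxia-induced miR-210 gene, had late GN log2 changes of 0.99, 0.97 and 0.91, each without overlap with control. miR-210* gave 25.7 to 31.0 in control and 45.7 to 61.5 in late GN. miR-23a*, whose guide acts in endothelial and muscle cells, gave 8.52 to 14.7 in control and 17.1 to 20.4 in late GN. miR-143* and miR-214*, whose guides are known from smooth muscle, mesangial cells and fibroblasts, had late GN log2 changes of 0.56 and 0.59.

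**Figure D3:**
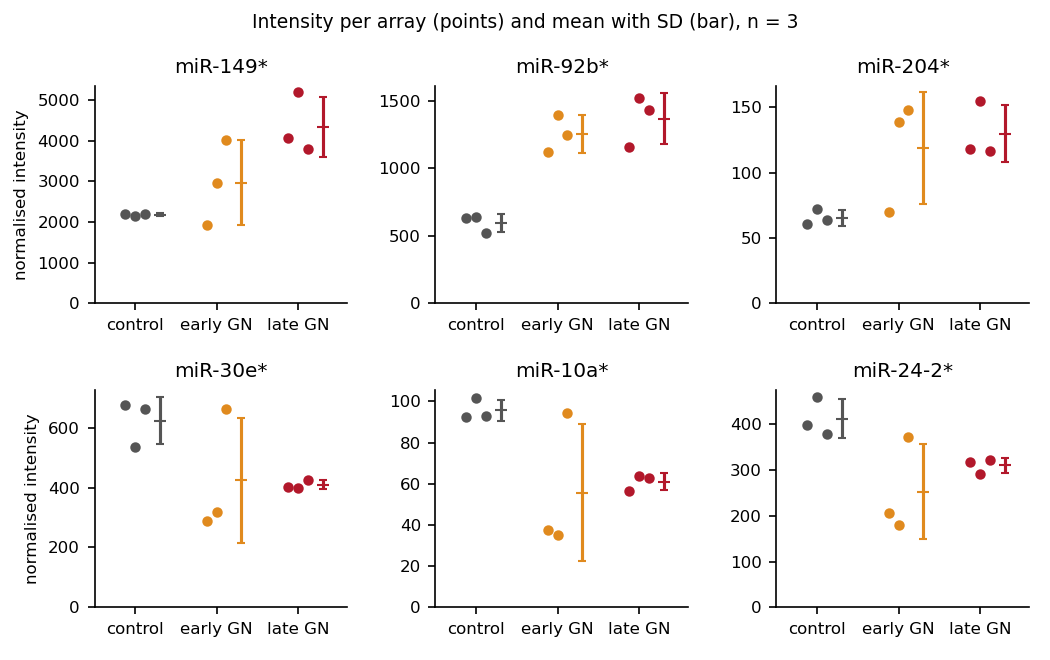
Normalised intensity of 6 passenger strands on each array (points) with the group mean and SD (bar, n = 3), on linear axes from 0. miR-149*, miR-92b* and miR-204* lie higher in late GN than in control, whereas miR-30e*, miR-10a* and miR-24-2* lie lower, and the early GN arrays spread widely for all but miR-92b*.

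At the other end were strands of the miR-10, miR-30, miR-24 and miR-29 hairpins. The miR-10 genes lie in the Hox clusters. miR-10a* gave 92.7, 102 and 92.9 in control, 37.8, 35.04 and 94.2 in early GN, with 56.5, 64.0 and 62.6 in late GN. miR-10b* gave 27.9, 28.7 and 28.8 in control, 12.4, 6.13 and 25.02 in early GN, with 15.8, 16.9 and 17.8 in late GN. All late values of both lay below all control values. The late log2 changes were −0.65 and −0.76 on the deposited scale (limma adjusted p = 0.302 and 0.209), and with the common median they were −0.96 for miR-10a* and −1.07 for miR-10b* (limma adjusted p = 0.002 and 0.009).
The miR-30 family is abundant in podocytes, the epithelial cells of the filtration barrier. miR-30e* gave 676, 534 and 662 in control, 289, 319 and 664 in early GN, with 403, 399.9 and 426 in late GN. Late GN lay below control without overlap, with a log2 change of −0.60 (limma adjusted p = 0.330), and with the common median of −0.91 (limma adjusted p = 0.002). miR-30a* gave 735, 864 and 334 in control and 438 to 487 in late GN, so that the third control array lay below every late GN array. miR-30c-2*, with 24.1 to 32.6 in control and 21.2 to 27.0 in late GN, overlapped as well.
The miR-23, miR-27 and miR-24 hairpins are transcribed together in 2 clusters. miR-24-2* gave 378 to 460 in control and 292 to 322 in late GN, and miR-24-1* 122 to 157 and 92.5 to 109, both without overlap. miR-27b* gave 15.6 to 26.0 and 14.4 to 17.6. miR-23a*, which is cut from the same transcript as miR-24-2*, differed from these in direction, and 3 of the 4 strands of these clusters fell with the common median (all tested 29.9%), whereas 0 rose (all tested 32.1%).
miR-29 guides act on collagen mRNAs. The 3 strands miR-29a*, miR-29b-2* and miR-29c* had late log2 changes of −0.42, −0.20 and −0.22, all overlapping control, and all 3 fell with the common median (all tested 29.9%). miR-140*, miR-28* and miR-145* had late log2 changes of −0.16, −0.14 and −0.46. The 3 late GN values of miR-145* ranged from 11.7 to 29.4 and the control values from 20.7 to 29.4. miR-22* was at 45.6 to 83.5 in control and 63.9 to 73.7 in late GN.

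Late against early GN, 31 of the 32 strands had a higher mean in late GN, as did 399 of the 411 miRNAs. The highest were miR-7a-2* (log2 1.30), miR-185* (1.27), miR-7b* (1.26) and miR-194-1* (1.25), each with an adjusted p of 0.071 by limma, and miR-187* followed with 1.08. The lowest were miR-30a* (−0.0011), miR-29a* (0.03), miR-30e* (0.06), miR-92b* (0.12) and miR-204* (0.19). The early GN array scale entered this comparison, and 24 of the 32 changed sign under at least 1 of the 7 scalings, while 7 stayed higher and 1 stayed lower.

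The ratio of a passenger strand to its guide on the same array is free of the array's scaling factor. An error in the background taken off each spot does not cancel in it, and weighs most on dim strands. It could be formed for 21 of the 138 passenger strands and for 44 star and guide pairs of the array, since both strands needed a value on all arrays. In late GN the ratio rose for 5 of 21 pairs (all pairs, either direction, 18.2%) and fell for 0, and in early GN it rose for 1 of 21 (all pairs 4.55%) and fell for 0 (limma on log2 ratios, Benjamini-Hochberg over 44 pairs). At an unadjusted p of 0.05, 6 were higher in late GN (all pairs 20.5%) and 5 in early GN (all pairs 15.9%), and 0 were lower at either stage (all pairs 0%). The median log2 change of the ratio was 0.26 in early and 0.35 in late GN, against 0.31 and 0.30 over all 44 pairs. In late GN 8 of 21 ratios lay above all control ratios (all pairs 27.3%) and 0 below (all pairs 0%), and in early GN 6 lay above (all pairs 22.7%) and 0 below (all pairs 2.27%).

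The ratio of miR-204* to miR-204 had the largest change of the 21 at both stages. Its log2 was −1.06, −0.93 and −1.01 on the control arrays, 0.65, 1.54 and 0.31 on the early GN arrays and 0.70, 1.17 and 1.04 on the late GN arrays. Every GN array lay above every control array. The log2 change was 1.83 ± 0.31 in early GN (SE, limma adjusted p = 7.18e-04) and 1.97 ± 0.31 in late GN (limma adjusted p = 2.92e-04), or 3.56-fold and 3.92-fold. The star had 65.5 ± 6.12 in control and 129.9 ± 21.7 in late GN (SD, n = 3), and the guide 131 ± 6.04 and 66.1 ± 8.23, so the means of both strands differed, in opposite directions. miR-204 itself is 1 of the 3 tubule markers, whose sum overlapped between control and late GN. The sum does not follow miR-204, since another of the 3, miR-194, gave 407 ± 126 in control and 549 ± 59.5 in late GN.
The ratio of miR-187* to miR-187 had log2 values of −0.27 ± 0.26 in control, 0.53 ± 0.49 in early GN and 1.15 ± 0.75 in late GN (SD, n = 3), a late change of 1.42 ± 0.36 (SE, limma adjusted p = 0.011). The late arrays gave 0.96, 1.98 and 0.52, and the highest coincided with the lowest late value of the guide, 21.9 against 45.3 and 46.8.
The ratio of miR-210* to miR-210 was −1.14, −1.16 and −1.04 in control and −0.21, 0.45 and 0.11 in late GN, a change of 1.23 ± 0.30 (SE, limma adjusted p = 0.011). In early GN it was −1.08, −0.03 and −0.47, with 1 array inside the control range. The guide gave 60.3 ± 3.53 in control and 48.3 ± 4.03 in late GN.
The ratio of miR-23a* to miR-23a was −10.32 ± 0.22 in control and −9.25 ± 0.19 in late GN (SD, n = 3), a change of 1.07 (limma adjusted p = 0.014). That of miR-185* to miR-185 was −2.33 ± 0.10 and −1.45 ± 0.29, a change of 0.88 (limma adjusted p = 0.030), and its guide gave 89.4 ± 11.3 and 101 ± 0.62. Both stars were dim in control, with 8.52 to 14.7 for miR-23a* and 16.1 to 20.5 for miR-185*. The lowest values that the arrays listed were 4.41 to 6.48.
All 5 of these ratios lay above control on each late GN array. The only late GN array scanned at the gain of the controls was late GN 1. With this array alone as the late group none passed, and the log2 changes were 1.70 for the miR-204 pair (limma adjusted p = 0.112), 1.23 for miR-187, 0.90 for miR-210, 0.91 for miR-23a and 0.75 for miR-185. That fit takes the single array to vary like the other groups. Without control array 2 the late count was 2, without control array 3 it was 3, and without late GN array 2 it was 1, and miR-204* passed in each of these.

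**Figure D4:**
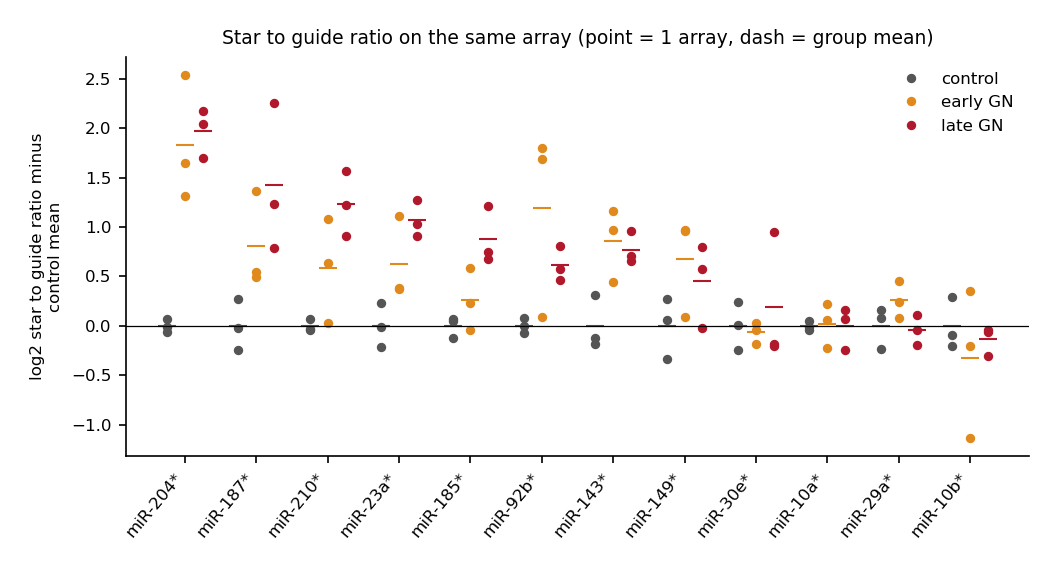
Log2 ratio of star to guide on each array (point) relative to the control mean for 12 pairs (dashes, group means). The log2 ratio of the miR-204 pair, −1.06 to −0.93 in control, was 0.31 to 1.54 on the GN arrays, while the late GN means of the miR-10a, miR-29a and miR-10b pairs were within 0.14 of control.

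Other ratios did not pass in this fit. The miR-92b pair was at 5.08 ± 0.07 in control, 6.27 ± 0.96 in early GN and 5.70 ± 0.17 in late GN (early change 1.19, limma adjusted p = 0.067). The miR-143 pair changed by 0.86 in early and 0.77 in late GN (limma adjusted p = 0.082 and 0.070), without overlap with control at either stage. The miR-149 pair changed by 0.67 and 0.45, and the miR-17 pair by 0.41 and 0.35. No ratio passed for the strands with lower late GN levels, whose late change was −0.0021 for miR-10a (SE 0.27), −0.14 for miR-10b (SE 0.33), −0.04 for miR-29a (SE 0.27), 0.05 for miR-29c (SE 0.27) and 0.19 for miR-30e (SE 0.32). It was larger than its SE for miR-30a (0.41, SE 0.36) and miR-28 (0.36, SE 0.31), both overlapping control. This depended on the processing. With normexp and quantile normalization the late ratio passed upward for miR-10b (0.43, limma adjusted p = 0.041) and miR-145 (0.38, limma adjusted p = 0.018). It passed downward for miR-29a (−0.28, limma adjusted p = 0.041). The guides of the miR-10 and miR-30 strands were lower in late GN too, with log2 changes of −0.65 for miR-10a, −0.62 for miR-10b, −0.79 for miR-30e and −0.76 for miR-30a. The ratios of miR-30a and miR-140 varied widely among the control arrays (−3.79, −3.34 and −5.06 for miR-30a and 0.64, −0.64 and −0.30 for miR-140), and the miR-140 ratio of early GN array 2 stood at 1.92.

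Some guides are cut from more than 1 hairpin and carry no locus number. When stars with a locus number were paired with that guide, 28 passenger strands and 53 pairs could be formed. The ratio then rose for 9 of 28 in late GN (all pairs 26.4%) and 4 of 28 in early GN (all pairs 13.2%). The added pairs that rose were miR-92a-2* to miR-92a, with log2 changes of 1.48 in early GN (limma adjusted p = 0.003) and 1.45 in late GN (limma adjusted p = 0.004), and in late GN miR-7a-2* to miR-7a (1.06, limma adjusted p = 0.037) and miR-194-1* to miR-194 (0.88, limma adjusted p = 0.040). The log2 ratio of miR-92a-2* was 0.36, 0.31 and −0.02 in control and 1.73, 1.61 and 1.66 in late GN. The stars miR-7a-2* and miR-194-1* were dim in control, with intensities of 10.6 to 14.9 and 9.48 to 15.4. The ratios of miR-24-1* and miR-24-2* to miR-24 changed by 0.06 and 0.11 in late GN. That of miR-30c-2* to miR-30c changed by 0.46 (SE 0.26, limma adjusted p = 0.317), with all late GN ratios above all control ratios. Guides of 2 hairpins collect RNA from both, so these are not ratios within 1 duplex.

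Base composition went with the direction of change, a pattern that was noticed in the values and is given as a description. Of the 13 passenger strands with at most 50% G and C bases, 12 had a lower and 1 a higher mean in late GN than in control, with a median log2 change of −0.34 and a range of −0.76 to 0.05. Of the 8 strands above 60%, 7 were higher and 1 was lower, with a median of 0.98. The 8 strands between were higher in 7 cases, with a median of 0.83. In early GN all 13 of the first class were lower (median −0.74), but so were 316 of all 411 tested miRNAs. The strands above 60% had an early median of 0.03. The exception above 60% was miR-128-2*, and in the first class miR-22*. The 22 tested guides of these strands had the same order, with late medians of −0.44 in 16 guides at or below 50% and 0.53 in 3 above 60%. The 101 other tested miRNAs whose array name equals that of 1 mature RefSeq sequence had late medians of −0.07 (n = 31), 0.86 (n = 31) and 0.84 (n = 39) in the 3 classes. Of these, 16 of 31 at or below 50% were lower and 34 of 39 above 60% were higher in late GN. In early GN all 16 guides (median −0.73) and 28 of 31 others (median −0.56) at or below 50% were lower. The others above 60% had an early median of −0.0035.

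Pearson's r between the share of G and C and the log2 change over the 29 strands was 0.66 in early and 0.72 in late GN (Spearman's rho 0.76 and 0.75). It was 0.40 and 0.43 over the 22 guides and 0.51 and 0.41 over the 101 other miRNAs. These points share the same 9 arrays and are not independent replicates. The ratio, which is free of the array factor, had an r with the star's share of G and C of 0.59 in early and 0.60 in late GN over 16 pairs. The late change had little correlation with the level of the strand (r = 0.025, rho = −0.036 over 32 strands). In 4 classes of rising level the late medians were nevertheless 0.59, 0.29, −0.07 and −0.16. Over all tested miRNAs they were 0.72, 0.56, 0.22 and −0.26. Over all 411 miRNAs the brighter ones changed less or downward (r = −0.31). The run GGG, searched on the sense strand of the mature sequence, occurs in 14 of the 29 strands and in 30.3% of 1738 mature mouse sequences in RefSeq. Of the 101 other tested miRNAs 36.6% hold it. The late median of the 29 strands was 0.71 with GGG and −0.20 without, and that of the 101 others 0.90 and 0.50. miR-10a*, miR-10b* and miR-30c-2* hold GGG and had negative late changes, while miR-194-1*, miR-7a-2*, miR-7b* and miR-210* lack it and had positive ones. The reason was not tested.

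**Figure D5:**
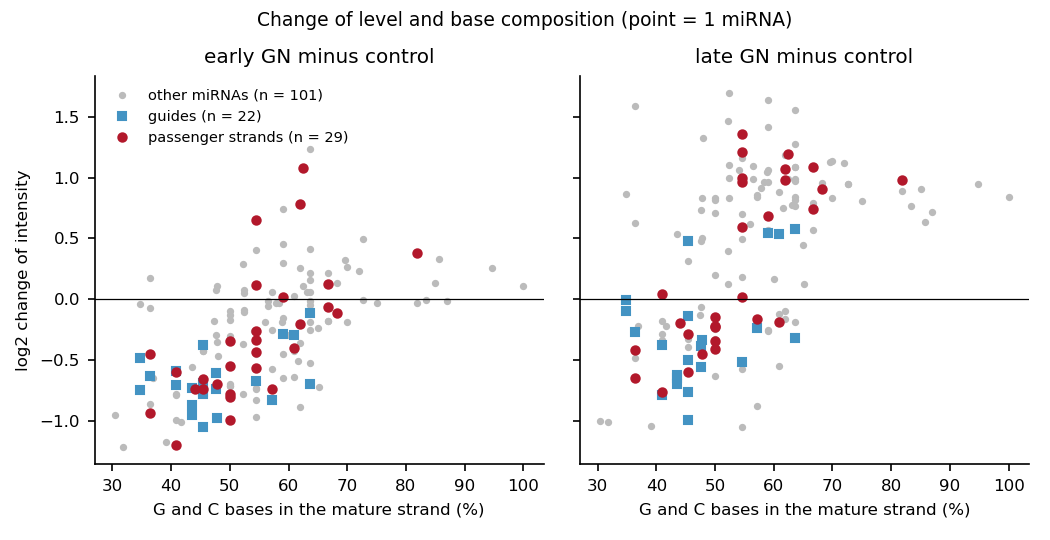
Log2 change of intensity in early (left) and late GN (right) against the share of G and C bases in the mature strand, for 29 passenger strands, 22 guides and 101 other miRNAs (point, 1 miRNA). Strands with at most 50% G and C lie below 0 in early GN, and those above 60% lie mostly above 0 in late GN.

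Slide 2 held the third control array and early GN array 1, the only slide with both control and GN. On it the log2 difference, early minus control, was 1.11 for miR-92b*, 0.47 for miR-92a-2*, 0.13 for miR-204* and −0.20 for miR-149*, against −1.30 for miR-10a* and −1.19 for miR-30e*. These levels include the offset of early GN array 1, whose median log2 difference from the control mean over all tested miRNAs was −1.03. It was scanned at gain 36, against 35 for the control array. The log2 ratio differed by 1.66 for the miR-204 pair and 1.70 for the miR-92b pair, and by 0.01 for the miR-10a pair. Among the other pairs that passed in late GN it differed by 0.60 for miR-23a, 0.52 for miR-187, 0.08 for miR-185 and −0.04 for miR-210. The miR-30a pair, which did not pass, differed by 1.63. Late GN and control shared no slide, so slide and group cannot be told apart there.

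Most passenger strands of the classic families had low values or none. None of the 10 let-7 stars had a value on all arrays, 3 had none at all, and the values of the others were 5.89 to 21.2. let-7d* was listed on 8 arrays, with 9.96 to 11.01 in control and 12.2 to 21.2 in late GN. No star of the miR-15 and miR-16, the miR-130 and miR-148, the miR-200, the miR-34 or the blood cell group was listed on all arrays. miR-155*, from a miRNA of activated lymphocytes and macrophages, gave 9.06, 5.91 and 5.72 in control and 14.9, 22.8 and 8.7 in late GN. miR-194-2*, the partner of miR-194-1* at the other miR-194 locus, gave 10.4 to 18.6 in control and 30.1 to 40.5 in late GN, and no value on early GN array 1. The 73 strands listed on 1 to 8 arrays had values of 4.77 to 40.5 with a median of 10.05, near the lowest values that any array listed (4.41 to 6.48).
Just 2 of the 138 strands were listed on all late GN and no control arrays, or 1.45% (all probes 2.38%), and 0 the other way. miR-18b* gave 11.0, 19.7 and 8.29 on late GN arrays and had no value on the other 6. Set against the higher of the lowest listed value and the spot's own signal on each array, this is at least 2.13-fold higher than control and at least 2.44-fold higher than early GN. miR-135a-1* gave 11.2 to 13.6 in late GN, 10.3 and 10.4 on early GN arrays 2 and 3 and no value in control, at least 2.16-fold higher in late GN than in control. Neither was tested.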

How the data were processed

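Glomerular miRNA of 9 mice, 1 per array and 3 per group, was hybridised to single-colour 3D-Gene arrays (Hy5 label). The intensity values were deposited by the authors after global normalization. Set against the scanner output, each is the spot median minus the mean of the blanks, multiplied by 1 factor per array, so that the listed values have a median of 25. Weak spots carry no value. The limit used and the software versions are not given in the sources used here. A second deposited table of the whole series holds the same values.

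log2 intensities of the 411 miRNAs listed on all arrays were fitted with limma 3.58.1 (R 4.3.3), all 3 groups together, with Benjamini-Hochberg adjustment and a two-sided threshold of 0.05. The methods name a t-test, which was run as an alternative. Log2 ratios of star to guide were fitted likewise over 44 pairs, and adjusted p-values in the text come from these limma fits. Ratios to guides without a locus number, other scalings, backgrounds, filters, a pseudocount of 16, slide (statmod 1.5.0) and replicate blocks and omission of single arrays were tried. The fits were tested on simulated data.

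Strands were named if they passed a test, had the largest changes or signals, or led their family by signal. Guide and star arms were assigned from general knowledge of miRNA nomenclature. The members, families and marker lists were chosen with earlier results of these data known, and base composition was examined after values were seen. Each array is 1 mouse, and the limma p-values rest on the spread between 3 arrays per group, which limma shares across miRNAs. The number of arrays limits the precision. Exact tests used scipy 1.17.1, and matplotlib 3.10.9 drew the plots, under Python 3.11.15.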

Additional observations from a re-analysis of the deposited data

How the results depend on the processing

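The number of passenger strands past the threshold depended on how the arrays were scaled. In early GN against control (0 on the deposited scale) it was 4 with a common median, 6 with cyclic loess, 3 with the 75th percentile of probes listed on all arrays and 3 with that of all probes, 5 with normexp and quantile normalization and 1 with a pseudocount of 16. In late GN (0) it was 22, 21, 13, 12 and 10 under the same 5 scalings, 4 with the spike controls, 4 with the pseudocount, 1 with strands listed on 2 of 3 arrays of each group, 20 with only the groups compared in the fit and 17 by the methods' t-test after Benjamini-Hochberg adjustment. Unadjusted, that t-test called 3 strands in early GN, 19 in late GN and 3 between stages. In late against early GN (0) it was 1 with the spike controls. The cause of these differences was not tested. Leaving out each array in turn gave 0 to 19 in early GN, 0 to 16 in late GN and 0 to 26 between the stages, with the highest count in each case without early GN array 3. The median log2 change in late GN (0.03) was −0.28 with a common median, −0.31 with cyclic loess, −0.15 with the 75th percentile of listed probes and −0.43 with that of all probes. Between the stages (0.57) it was −0.13, −0.16, 0.055 and −0.24 under these, −0.040 with normexp and quantile, 0.48 with the spike controls and 0.35 with the pseudocount. Leaving out arrays gave −0.82 to −0.17 in early GN, −0.02 to 0.11 in late GN and 0.31 to 0.94 between stages.

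The number of ratios past the threshold in early GN (1) was 4 with normexp and quantile, 3 with the pseudocount, 4 with locus pairing, 3 with slide as a random block and 0 by the methods' t-test, and 1 to 2 when arrays were left out. In late GN (5) it was 9 with normexp and quantile, of which 1, that of miR-29a*, fell. It was 6 with the pseudocount, 8 with pairs listed on 2 of 3 arrays, 9 with locus pairing and 1 to 6 when arrays were left out. With only the arrays at gain 35, an alternative chosen after seeing the data, it was 0, but the late group was then 1 array, taken to vary like the other groups, and the change of the miR-204* ratio was 1.70 against 1.97, so this count says nothing about gain. Between stages it was 0 to 1. Of the 5 late ratios past the threshold, 4 still passed with normexp and quantile and 3 with the pseudocount. With normexp and quantile their late changes were smaller, 1.00 for miR-204*, 0.52 for miR-187*, 0.41 for miR-23a* and 0.40 for miR-210*. That of miR-185* was 0.22 (limma adjusted p = 0.119). With the pseudocount miR-23a* was at 0.70 and miR-185* at 0.50 (limma adjusted p = 0.053 and 0.054). Replicate numbers did not pair the samples: deviations of arrays with the same number correlated at −0.22 to 0.34 over 9 pairs. With the replicate block the counts were 0 for levels in all 3 comparisons and 2, 5 and 0 for ratios in early GN, late GN and between stages.

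Some single values changed sign. For the level in early GN, that of miR-30a* (−0.34) was 0.040 with a common median, 0.086 with cyclic loess, 0.0089 with the 75th percentile of all probes and 0.018 with normexp and quantile. That of miR-211* (−0.06) was 0.32, 0.42, 0.31 and 0.37 under these 4, 0.30 with the 75th percentile of listed probes, 0.10 with the spike controls and 0.28 at gain 35. That of miR-194-1* (0.11) was −0.25 with both 75th percentiles, −0.0069 with normexp and quantile and −0.46 with the spike controls. For the level in late GN, miR-145* (−0.46) was at 0.27 at gain 35, with 1 late array.

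Between the stages, under a common median, cyclic loess, the 75th percentile of listed and of all probes, normexp and quantile, and gain 35, in this order, miR-30e* (0.06) was at −0.64, −0.43, −0.52, −0.82, −0.31 and −0.19, miR-29a* (0.03) at −0.67, −0.77, −0.28, −0.58, −0.13 and −0.18, miR-204* (0.19) at −0.50, −0.42, −0.31, −0.60, −0.21 and −0.28, and miR-92b* (0.12) at −0.58, −0.29, −0.46, −0.75, −0.34 and −0.19. With the spike controls miR-30e* was at −0.094 and miR-92b* at −0.028, and with the pseudocount miR-29a* at −0.0050.

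For the early ratio, normexp and quantile gave 0.054 for miR-30e* (−0.06), 0.33 for miR-10b* (−0.33), 0.028 for miR-29c* (−0.18) and 0.10 for miR-214* (−0.15), and the pseudocount 0.27 for miR-10b*, 0.071 for miR-29c* and 0.062 for miR-214*. miR-27b* (0.0019) was at −0.23 at gain 35 and −0.21 with slide as a random block, and miR-145* (0.0018) at −0.057 at gain 35. For the late ratio, normexp and quantile and the pseudocount gave 0.43 and 0.18 for miR-10b* (−0.14), 0.17 and 0.11 for miR-10a* (−0.0021) and −0.030 and −0.16 for miR-214* (0.05). miR-29a* (−0.04) was at 0.089 with the pseudocount and miR-29c* (0.05) at −0.10 at gain 35.

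Leaving out arrays also turned signs. The ranges for the early level were −0.30 to 0.36 for miR-194-1*, −0.36 to 0.28 for miR-211*, −0.17 to 0.42 for miR-128-1*, −0.24 to 0.64 for miR-187* and −0.33 to 0.55 for miR-143*. Between the stages they were −0.17 to 0.43 for miR-30e*, −0.25 to 0.42 for miR-29a*, −0.15 to 0.39 for miR-204* and −0.23 to 0.41 for miR-30a*. For the early ratio they were −0.19 to 0.053 for miR-30e*, −0.26 to 0.32 for miR-145*, −0.26 to 0.024 for miR-214*, −0.23 to 0.21 for miR-27b* and −0.67 to 0.075 for miR-10b*. For the late ratio they were −0.22 to 0.42 for miR-140*, −0.16 to 0.035 for miR-29a*, −0.16 to 0.16 for miR-29c*, −0.049 to 0.22 for miR-214*, −0.24 to 0.011 for miR-10b* and −0.084 to 0.12 for miR-10a*.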
